A study of Mus musculus with 48 samples.

Results

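The integrated stress response was followed through 10 of its genes, Atf4, Ddit3, Trib3, Chac1, Asns, Sesn2, Psat1, Phgdh, Ppp1r15a and Ddit4, in whole mouse melanoma tumors. The genes were listed by name and are 10 of the 55450 gene identifiers counted. Each symbol was matched to its GENCODE vM21 identifier, and all 10 passed the filter on low counts in both experiments. Their values were read as CPM, the counts of a gene scaled to a common library size, with the libraries of each experiment scaled on their own by edgeR's TMM factors.

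B16-D5 melanoma cells, a subline of the mouse B16 melanoma, were placed under the flank skin of mice 8 days before treatment, and RNA of 48 tumors was sequenced, 3 tumors from each of 16 conditions. The time course held 30 tumors of C57BL/6J wild-type (WT) mice. They were taken untreated at 0 h, and untreated, after control IgG or after anti-PD-1 antibody at 6 h, day 1 and day 3. The day 7 experiment held 18 tumors of WT mice and of mice labelled iNOS KO, which lack the inducible nitric oxide synthase gene Nos2, each untreated, after IgG or after anti-PD-1. Antibody was given at 250 µg per mouse on days 0 and 3. Tumors of 6 h and day 1 were taken before the second dose. Whether those of day 3 were taken before or after it is not given. The mice had arrived at 4 weeks of age and were housed for 2 weeks. The knockout was in the host, and the same B16-D5 cells were injected into both genotypes. The comparisons asked which genes responded to PD-1 blockade over time and whether a host without iNOS changed that response.

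Conditions followed the sample titles, because the separate treatment label matched the title in 14 of 48 tumors, the time label in 11 and the genotype label in 39. Library totals ran from 25574203 to 47687872 counts in the time course and from 11625862 to 40959309 at day 7. Nos2 itself did not separate the genotypes at day 7, at 1.15 to 5.92 CPM in tumors labelled iNOS KO and 1.40 to 7.28 CPM in WT tumors, so genotype is given as labelled. All 10 melanoma markers and all 8 leukocyte markers of the lists used were counted in every library. Libraries of both experiments stood apart. In the time course, these were untreated 0 h replicate 3, whose median correlation with the other libraries was 0.818, IgG day 1 replicate 6 (0.865) and IgG 6 h replicate 6 (0.880). At day 7, WT anti-PD-1 replicates 3 and 4 and untreated iNOS KO replicate 1 held 3715, 1308 and 917 CPM on 1504 sensory receptor genes, against at most 233 CPM in the other day 7 tumors. They were also the smallest libraries of day 7, at 11625862, 18797177 and 23267834 counts, against at least 27233047 in the others. Receptor gene counts and library size thus went together there.

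Cells start the integrated stress response when 1 of several kinases, which sense unfolded protein, missing amino acids, double-stranded RNA or missing heme, phosphorylates the translation factor eIF2alpha. General protein synthesis then slows, while the transcription factor ATF4 is translated more and switches on genes for amino acid supply, redox balance, feedback and, under lasting stress, cell death. In tumors the response is known to follow nutrient shortage, low oxygen and endoplasmic reticulum stress, and because ATF4 is controlled largely through translation, its targets report on the response more directly than its own mRNA.

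ATF4 binds DNA with C/EBP-family partners at composite elements. Such a core and a pair of other stress elements were looked for in the promoters that RefSeq gives for GRCm38.p6, each from 250 bases before to 50 bases after the transcription start. The amino acid response core TGATGNAA, which belongs to those composite elements and was searched on both strands, occurred in 3 of the 10 genes, Chac1, Asns and Trib3, against 4.51% of 27025 genes and 16 of 64 other listed genes of the pathway. The cyclic AMP response element TGACGTCA, which is bound by CREB and ATF factors and reads the same on both strands, occurred in Ppp1r15a, in 2.03% of genes and in 0 of the 64. The endoplasmic reticulum stress element (ERSE), bound by NF-Y and ATF6, was found in none of the 10, in 0.137% of genes and in 7 of the 64. The 4 stretches with a match are printed 5′ to 3′ on the gene's strand, with the match in capitals, to show where the stress elements lie. They are Chac1 from -230 to -151 relative to the start (chr2:119351012-119351091, plus strand), Asns from -80 to -1 (chr6:7693210-7693289, minus strand), Trib3 from 4 to 33 (chr2:152344028-152344057, minus strand) and Ppp1r15a from -80 to -1 (chr7:45526269-45526348, minus strand).
Chac1: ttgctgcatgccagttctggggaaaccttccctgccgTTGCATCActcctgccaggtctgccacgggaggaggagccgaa
Asns: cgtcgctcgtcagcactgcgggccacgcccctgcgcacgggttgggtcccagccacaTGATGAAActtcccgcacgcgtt
Trib3: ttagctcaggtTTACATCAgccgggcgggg
Ppp1r15a: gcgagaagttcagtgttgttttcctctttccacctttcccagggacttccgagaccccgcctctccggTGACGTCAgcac
The cores in Chac1 and Trib3 lay on the strand opposite to the gene. A match shows only that these letters are present.

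All 10 genes were expressed in every tumor, and the lowest count of any of them was 50 reads, for Trib3 in IgG day 1 replicate 6. Per kilobase of exon, Atf4 was the most abundant, with a median of 89.8 CPM per kb in the time course and 106 at day 7. Asns followed at 25.6 and 28.5, Phgdh at 22.2 and 24.7, Ddit4 at 21.6 and 25.8, Psat1 at 18 and 18.8, and Ddit3 at 15.7 and 21.8 CPM per kb. Ppp1r15a, Chac1 and Trib3 lay between 6.03 and 10.3 CPM per kb in the 2 experiments, and Sesn2 was the least abundant at 3.73 and 4.17. The conditions of an experiment were ordered by their mean CPM, and neighbouring means were compared with the larger of their 2 standard deviations. In 87 of 90 such pairs in the time course and 47 of 50 at day 7, the difference was no larger. Ordering places the closest means beside each other, so these counts say little about conditions farther apart. Between tumors of 1 condition in the time course, the standard deviation on the log2 scale was 0.80 for Trib3 and 0.69 for Ddit4, but 0.51 and 0.49 without IgG day 1 replicate 6, beside 0.51 for Phgdh. Sesn2 varied least in both experiments, at 0.28 and 0.21.

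**Figure D1:**
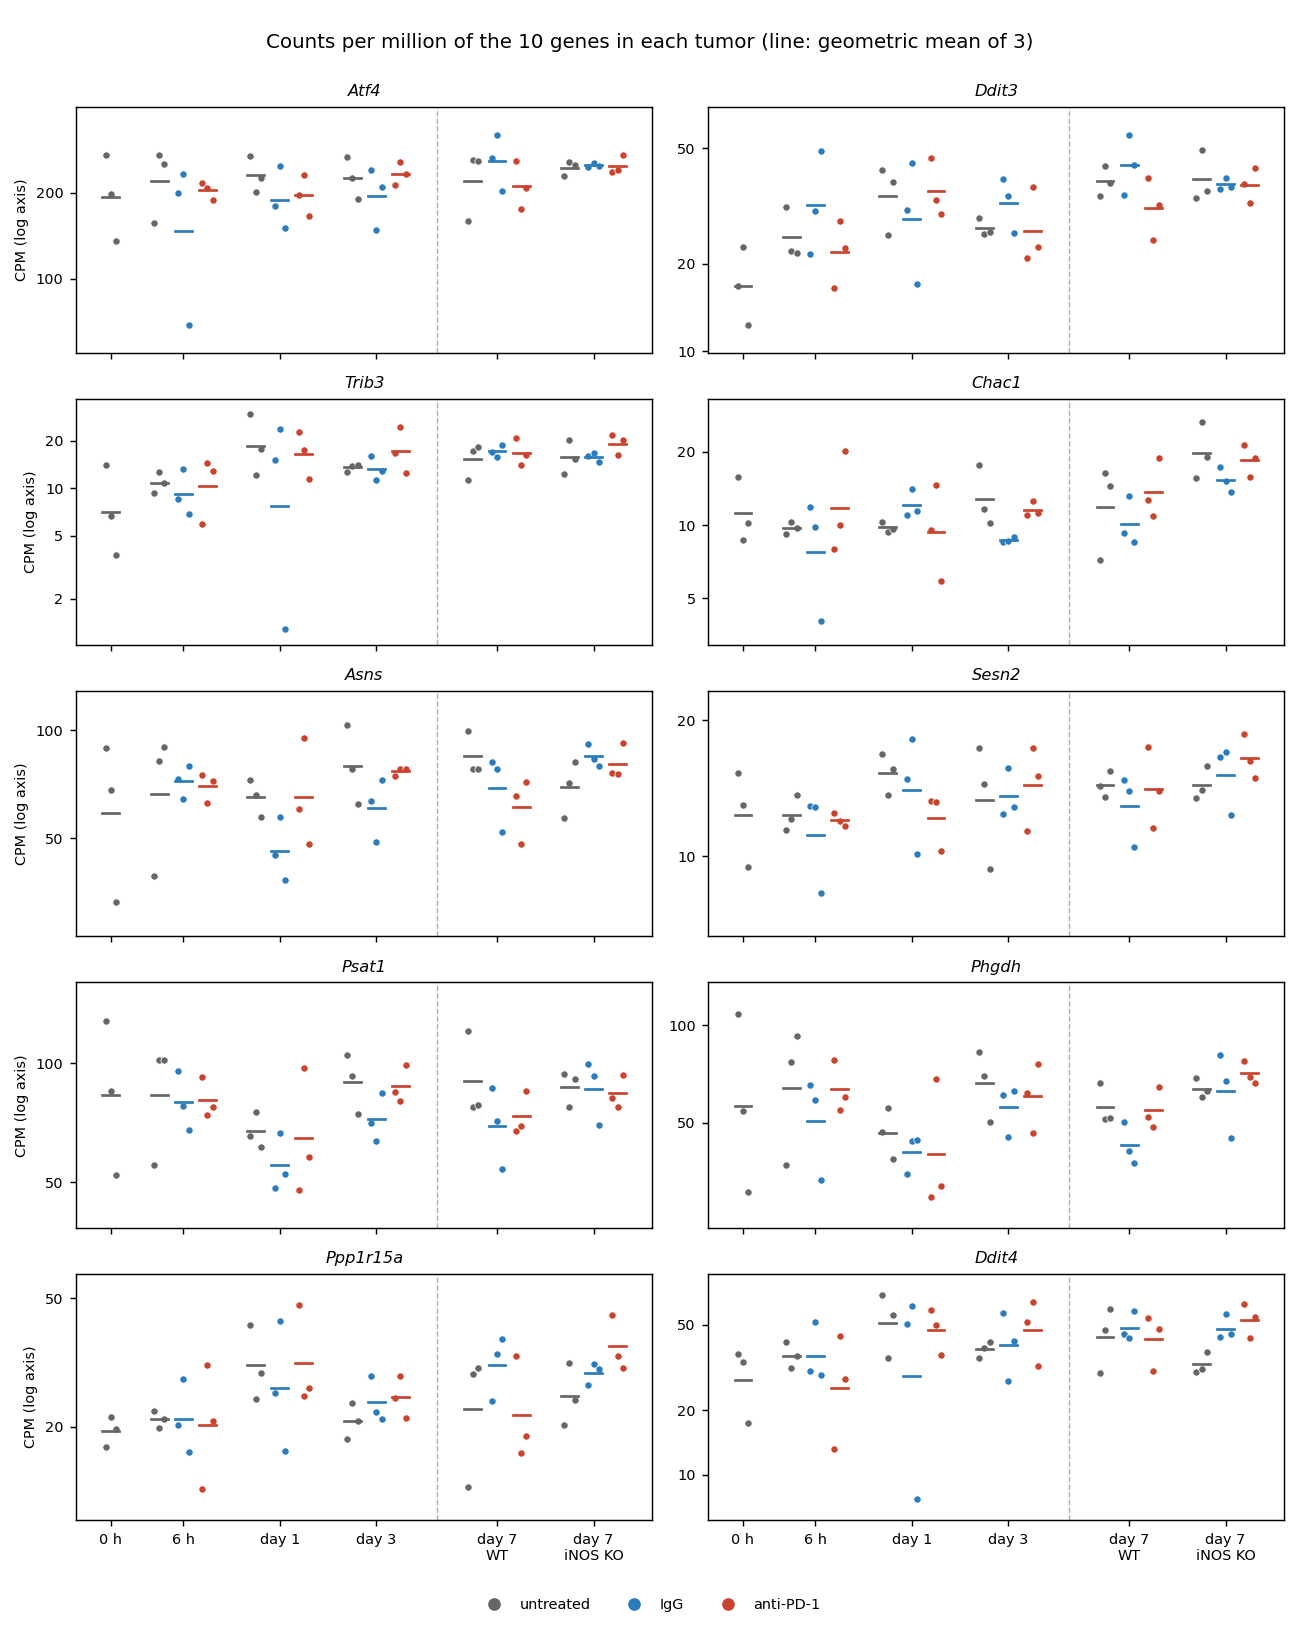
Each point is the CPM of 1 gene in 1 tumor on a log axis, by time and treatment for the 16 conditions. Horizontal lines are geometric means of 3 tumors and the dashed line separates the 2 experiments. The treatments of 1 time mostly overlap, and single tumors such as IgG 6 h replicate 6 for Atf4 (68.8 CPM) and IgG day 1 replicate 6 for Trib3 (1.28 CPM) and Ddit4 (7.68 CPM) lie far below the others of their conditions.

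None of the 10 genes passed the test in any of 29 comparisons, which included anti-PD-1 against IgG and untreated, IgG against untreated, time, genotype, the interaction of genotype with anti-PD-1, and any difference among conditions. Of 290 tests with edgeR's quasi-likelihood method, 0 reached an adjusted p under 0.05 and 20, or 6.90%, had an unadjusted p under 0.05. These were 9 of 170 tests in the time course, where the lowest adjusted p was 0.184, and 11 of 120 at day 7, where it was 0.144. DESeq2 also called 0, with 12 and 11 tests at an unadjusted p under 0.05. Its lowest adjusted p values were nearer the threshold, at 0.053 in the time course and 0.068 at day 7. In the edgeR fit the background was itself low, since 0% of the 26848 genes tested passed in each of the 17 time course comparisons. At day 7, 0.587% of 30837 genes passed for untreated iNOS KO against WT, 0.188% for IgG against untreated in iNOS KO, 0.0422% for anti-PD-1 against untreated in iNOS KO, 0.00973% for the mean of iNOS KO against WT, 1.66% for any of the 6 conditions, and 0% in the other 7 comparisons. A count of 0 of 10 was therefore close to the background in all 29. DESeq2 called more genes over the whole table, 1 to 741 of 26795 per time course comparison and 19 to 3877 of 30809 per day 7 comparison, with none of the 10 among them.

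The counts at an unadjusted p under 0.05 and of groups without overlap were read against the same shares of all genes. For anti-PD-1 against IgG, 4.38%, 3.64% and 2.14% of all genes had such a p at 6 h, day 1 and day 3 and 5.84% averaged over the times, with 0 of the 10 in each, and the groups did not overlap for 7.7%, 6.49%, 8.32% and 0.00372%. For anti-PD-1 against untreated these shares were 3.3%, 2.64% and 2.63% for p and 5.61%, 5.14% and 6.95% for overlap. For IgG against untreated they were 5.42%, 5.43% and 2.64%, and 8.19%, 12.6% and 11.2%. Untreated tumors of 6 h, day 1 and day 3 against 0 h gave 6.92%, 6.85% and 6.89%, and 5.45%, 8.06% and 7.72%. Over the 3 treatments, day 1 against 6 h, day 3 against 6 h and day 3 against day 1 gave 16.9%, 4.93% and 13.7%, and 0.0112%, 0.0186% and 0.0112%, and any of the 10 conditions gave 5.7% for p. Of the 10 genes, 3 had such a p in each of untreated day 1 against 0 h, day 1 against 6 h and day 3 against day 1, and 0 in the other 14. At day 7, iNOS KO against WT gave 16.5% untreated, 6.26% after IgG, 32.3% after anti-PD-1 and 12.4% on average, with 1, 1, 1 and 2 of the 10, and 17.7%, 12.1%, 22.3% and 0.013% for overlap. In WT, anti-PD-1 against IgG, anti-PD-1 against untreated and IgG against untreated gave 16.3%, 31.9% and 7.83%, with 1, 1 and 0 of the 10, and 11.9%, 24% and 12.8% for overlap. In iNOS KO they gave 1.94%, 17.3% and 15.6%, with 0, 1 and 1, and 7.09%, 14% and 17.6%. The interaction gave 7.42% with 0 of the 10, and any of the 6 conditions 28.2% with 2. In whole tumors, fewer cells that express a gene and less RNA per cell cannot be told apart.

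**Figure D2:**
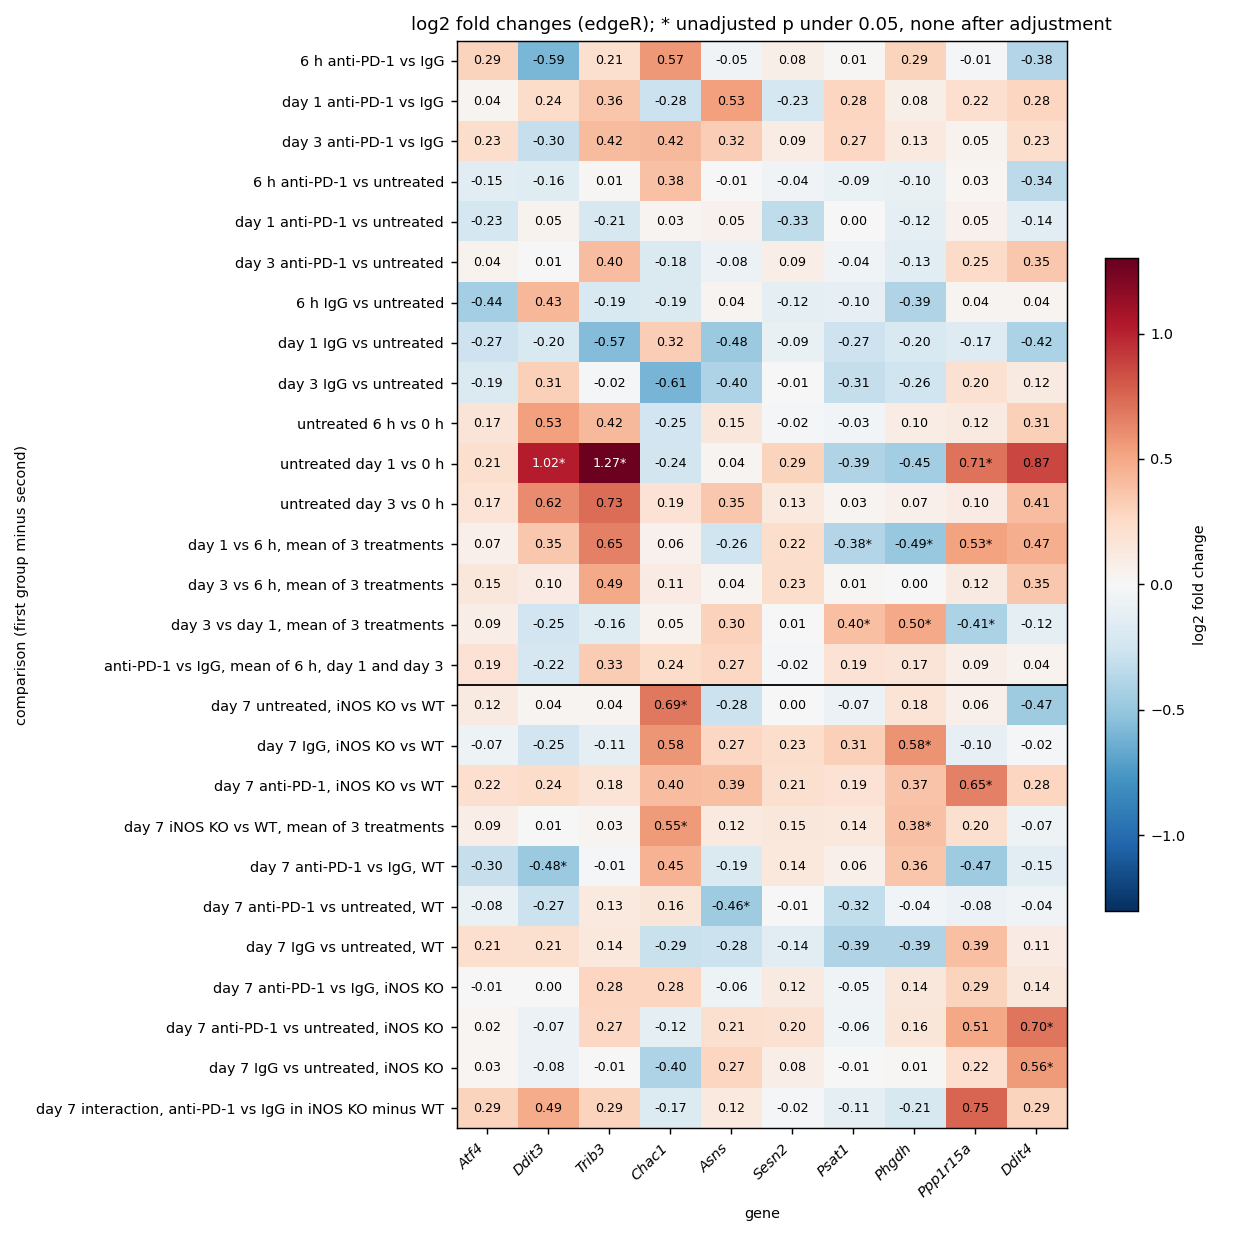
Each cell gives the log2 fold change (first group minus second) of 1 gene in 1 comparison, red where the first group was higher and blue where it was lower. The line separates time course and day 7, and asterisks mark an unadjusted p under 0.05. No cell passed after adjustment, and the largest values, 1.27 for Trib3 and 1.02 for Ddit3, belong to untreated day 1 against 0 h.

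Anti-PD-1 against IgG was the comparison of the antibody itself, and none of the 10 genes passed it at any time. The median of their log2 fold changes was 0.05 at 6 h, 0.23 at day 1, 0.23 at day 3, -0.08 at day 7 in WT and 0.13 at day 7 in iNOS KO. The gene with the lowest p at 6 h was Ddit3, with a log2 fold change of -0.59 ± 0.32 (SE, 3 tumors against 3), and the 95% intervals of the 10 genes at 6 h together ran from -1.37 to 1.38. With 3 tumors per group a 2-fold change in a single gene, which is 1 on the log2 scale, was therefore inside the interval for some genes at 6 h. The same held at day 1, day 3 and day 7 in WT. At day 7 in iNOS KO the intervals of the 10 genes together ran from -0.47 to 0.89 and did not reach it. Averaged over 6 h, day 1 and day 3, the log2 fold changes ran from -0.22 for Ddit3 to 0.33 for Trib3. The comparisons with IgG and with untreated tumors share their anti-PD-1 samples and are not independent.

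Atf4, the transcription factor at the centre of the response, lies on chromosome 15 (80255184 to 80257541, plus strand). Its CPM were 272, 198 and 136 in the untreated 0 h tumors and 270, 201 and 227 in the untreated day 1 tumors. At 6 h they were 157, 271 and 253 without treatment, 200, 233 and 68.8 after IgG and 217, 208 and 189 after anti-PD-1. In no comparison between 2 groups of 3 tumors did Atf4 separate the groups, and the 68.8 CPM of IgG 6 h replicate 6 was the lowest value of all 48 tumors. At day 7 Atf4 was 159, 261 and 259 CPM in untreated WT, 258, 176 and 208 in WT after anti-PD-1 and 237, 240 and 271 in iNOS KO after anti-PD-1. Its largest log2 fold change in any comparison was -0.44 ± 0.31 (SE), for IgG against untreated at 6 h (adjusted p = 0.798).

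Ddit3 encodes CHOP, a stress transcription factor downstream of ATF4 that is linked to cell death. It lies on chromosome 10 (127290774 to 127296288, plus strand). Its exons overlap those of Mars and Gm4189 on the opposite strand, so reads could be shared if strand was not used in counting, and a second identifier with the same symbol had 0 counts in all 48 tumors. Untreated tumors gave 16.8, 22.9 and 12.4 CPM at 0 h, 31.3, 22.1 and 21.9 at 6 h, 42.2, 25.1 and 38.2 at day 1, and 28.8, 25.3 and 25.7 at day 3. All 3 tumors of day 1, and all 3 of day 3, lay above all 3 of 0 h. Such a gap was seen for 8.06% of all genes tested at day 1 and 7.72% at day 3. The log2 fold change was 1.02 ± 0.33 (SE) at day 1 (adjusted p = 0.441, edgeR) and 0.62 ± 0.32 at day 3 (adjusted p = 0.699). Without the 3 libraries that stand apart it was 0.88 at day 1 (adjusted p = 0.713). At day 7 Ddit3 was 34.6, 55.4 and 43.9 CPM in WT tumors after IgG and 39.6, 24.1 and 31.9 after anti-PD-1, with overlapping values and a log2 fold change of -0.48 ± 0.20 (adjusted p = 0.305). Without the 3 libraries with receptor gene counts, which leaves 1 WT anti-PD-1 tumor, that difference was -0.18.

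Ppp1r15a encodes GADD34, which brings a phosphatase to eIF2alpha and so ends the response. It lies on chromosome 7 (45522916 to 45526268, minus strand) and overlaps Tulp2 on the other strand. Untreated tumors gave 17.2, 21.5 and 19.7 CPM at 0 h and 41.4, 24.4 and 29.3 at day 1, without overlap, and the log2 fold change was 0.71 ± 0.31 (adjusted p = 0.693). Over the 3 treatments together, its mean was 21.4 CPM at 6 h, 30.9 at day 1 and 23.3 at day 3. The log2 fold change was 0.53 ± 0.18 from 6 h to day 1 (adjusted p = 0.184) and -0.41 ± 0.18 from day 1 to day 3 (adjusted p = 0.348). Neither passed the test, although 16.9% and 13.7% of all genes had an unadjusted p under 0.05 in these comparisons. At day 7 after anti-PD-1, Ppp1r15a was 33.1, 16.6 and 18.7 CPM in WT and 44.4, 33.1 and 30.3 in iNOS KO. The 2 low WT tumors were replicates 3 and 4, which hold the receptor gene counts, and the remaining WT tumor lay inside the iNOS KO range. The log2 fold change was 0.65 ± 0.29 with all tumors (adjusted p = 0.144), 0.16 without those libraries, 0.10 with the receptor gene counts as a covariate, and 1.07 without WT anti-PD-1 replicate 2 (adjusted p = 0.029).

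Trib3, a pseudokinase induced by ATF4 and CHOP that feeds back on both, lies on chromosome 2 (152337422 to 152344032, minus strand). Untreated tumors gave 14, 6.66 and 3.77 CPM at 0 h and 29.4, 12.2 and 17.6 at day 1, which overlapped, and the log2 fold change was 1.27 ± 0.58 (adjusted p = 0.701), or 0.98 without the 3 libraries that stand apart. In IgG tumors of day 1 it was 15, 23.6 and 1.28 CPM. The low tumor, replicate 6, was also the lowest for Ddit4, and markers of skeletal muscle summed to 7449 CPM in it against 3.00 and 6.58 in the other two. At day 7 all 18 tumors lay between 11.3 and 21.6 CPM.

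Markers of other tissues moved with the comparison of untreated day 1 with 0 h. Skeletal muscle markers summed to 888, 3487 and 6320 CPM at 0 h and to between 4.59 and 28.3 at day 1, with all 9 markers lower at day 1 at an unadjusted p under 0.05, as were all 8 keratinocyte markers, and 0 of the 9 and 0 of the 8 were at 0 in every library. Their part in the higher Ddit3, Trib3 and Ppp1r15a values was not tested. In that comparison 3 of the 10 genes had an unadjusted p under 0.05, against 6.85% of all genes.

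Ddit4 encodes REDD1, which restrains the growth kinase mTORC1 and is induced both by ATF4 and by low oxygen. It lies on chromosome 10 (59949669 to 59951834, minus strand). At day 7 the iNOS KO tumors gave 30.2, 31 and 37.6 CPM untreated, 44, 56.0 and 45.3 after IgG, and 62.5, 43.7 and 54.4 after anti-PD-1. Both antibody groups lay above all untreated tumors, a gap seen for 17.6% of genes with IgG and 14% with anti-PD-1. The log2 fold change was 0.56 ± 0.23 for IgG (adjusted p = 0.314) and 0.70 ± 0.23 for anti-PD-1 (adjusted p = 0.273), and these comparisons share their untreated tumors. Anti-PD-1 and IgG tumors differed from each other by 0.14 on that scale, with a 95% interval from -0.34 to 0.63. In WT the values were 29.8, 47.4 and 59.4 CPM untreated, 45.3, 43.4 and 58.3 after IgG and 54.0, 30.6 and 47.7 after anti-PD-1, which overlapped throughout. Of the 13 hypoxia genes, 12 were higher in iNOS KO tumors after anti-PD-1 than untreated, with a median of 0.33. An unadjusted p under 0.05 was reached by 2 of the 13, against 17.3% of all genes. Fibroblast markers summed to 669 to 904 CPM in untreated iNOS KO tumors, 2273 to 3791 after IgG and 787 to 3979 after anti-PD-1. Glucocorticoid targets summed to 213 to 278, 323 to 366 and 323 to 391 CPM. The part of these 3 lists in the Ddit4 values was not tested. Untreated iNOS KO replicate 1 is among the libraries with receptor gene counts. Without those 3 libraries the Ddit4 log2 fold change was 0.51 for IgG and 0.65 for anti-PD-1, and with the counts as a covariate 0.32 and 0.44.

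Sesn2 encodes sestrin 2, another stress-induced restraint on mTORC1 that senses leucine. It lies on chromosome 4 (132492032 to 132510501, minus strand) and was the steadiest of the 10, between 8.32 and 18.6 CPM over all 48 tumors. At day 1 it was 16.8, 13.7 and 15.6 CPM untreated and 13.2, 13.2 and 10.3 after anti-PD-1, without overlap, which held for 5.14% of genes in that comparison, but the log2 fold change was -0.33 with a 95% interval from -0.83 to 0.18.

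Chac1 encodes an enzyme that breaks down glutathione and is among the sharpest markers of ATF4 activity. It lies on chromosome 2 (119351229 to 119354381, plus strand). At day 7 it was 7.16, 16.4 and 14.5 CPM in untreated WT and 15.6, 26.5 and 19 in untreated iNOS KO, 9.32, 13.2 and 8.51 in WT and 17.4, 15.1 and 13.7 in iNOS KO after IgG, and 12.7, 10.9 and 18.8 in WT and 21.3, 15.7 and 19 in iNOS KO after anti-PD-1. The genotypes were apart after IgG, as for 12.1% of genes, and overlapped in the other 2 treatments. Averaged over treatments, the log2 fold change of iNOS KO against WT was 0.55 ± 0.16 (95% interval 0.21 to 0.89, adjusted p = 0.224). That value was positive in each treatment, at 0.69, 0.58 and 0.40, but did not pass over all genes, of which 12.4% had an unadjusted p under 0.05. Without untreated iNOS KO replicate 1 it was 0.62 and passed (adjusted p = 0.046), and without all 3 libraries with receptor gene counts it was 0.68 and did not (adjusted p = 0.119). Without a filter on low counts it was 0.59 and passed (adjusted p = 0.00714, edgeR). In the same comparison all 10 melanoma markers were higher, with a median of 0.33, and all 8 leukocyte markers lower, with a median of -0.42, and their part in the Chac1 difference was not tested. In the time course Chac1 was 8.5, 8.59 and 8.91 CPM after IgG on day 3, below the 17.7, 11.7 and 10.2 of untreated tumors and the 11, 12.6 and 11.2 after anti-PD-1. At day 1 the IgG tumors, at 11, 14.1 and 11.5 CPM, lay above the untreated ones, at 10.4, 9.41 and 9.65 (12.6% of genes), with a log2 fold change of 0.32. On day 3, groups were apart for 11.2% and 8.32% of genes, and the log2 fold changes were -0.61 for IgG against untreated (95% interval -1.33 to 0.11) and 0.42 for anti-PD-1 against IgG (95% interval -0.30 to 1.14).

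Asns, Phgdh and Psat1 make amino acids. Asns encodes asparagine synthetase on chromosome 6 (7675169 to 7693254, minus strand), Phgdh the first enzyme of serine synthesis on chromosome 3 (98313170 to 98339990, minus strand), and Psat1 the next one on chromosome 19 (15904678 to 15947337, minus strand). Over the 3 treatments, the mean of Phgdh was 61.9 CPM at 6 h, 43.7 at day 1 and 61.8 at day 3, and that of Psat1 was 82.7, 63.7 and 83.8. From 6 h to day 1 the log2 fold change was -0.49 ± 0.22 for Phgdh (adjusted p = 0.248) and -0.38 ± 0.16 for Psat1 (adjusted p = 0.224). From day 1 to day 3 it was 0.50 ± 0.22 (adjusted p = 0.348) and 0.40 ± 0.16 (adjusted p = 0.348). The 2 comparisons share the day 1 tumors, and no value passed. All 10 melanoma markers were lower at day 1 than at 6 h, with a median of -0.34 and 5 at an unadjusted p under 0.05, and all 8 leukocyte markers were higher, with a median of 0.82 and 7 at that level. In that comparison 16.9% of all genes were at that level. The summed melanoma markers ran from 12879 to 18398 CPM at 6 h and from 10494 to 16245 at day 1, and the leukocyte markers from 137 to 442 and from 202 to 889. Their part in the Phgdh and Psat1 values was not tested.

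At day 7 Phgdh was 50.2, 40.9 and 37.6 CPM in WT tumors after IgG and 80.8, 67.4 and 44.7 in iNOS KO tumors, which overlapped in 1 iNOS KO tumor, with a log2 fold change of 0.58 ± 0.19 (adjusted p = 0.626). After anti-PD-1 it was 52.0, 48.5 and 64.4 in WT and 77.7, 69.1 and 66.5 in iNOS KO, without overlap, as for 22.3% of genes. In untreated WT tumors it was 66.2, 51.3 and 51.6 CPM, above those after IgG, as for 12.8% of genes, with a log2 fold change of -0.39 for IgG against untreated. Averaged over treatments the log2 fold change of iNOS KO against WT was 0.38 ± 0.11 (adjusted p = 0.221), and 0.41 without the 3 libraries with receptor gene counts. This is the comparison in which all 10 melanoma markers were higher, 6 of them at an unadjusted p under 0.05 (12.4% of all genes), and all 8 leukocyte markers lower, and their part in the Phgdh difference was not tested. Asns was 99.8, 77.9 and 78.1 CPM in untreated WT and 65.7, 48.1 and 71.8 in WT after anti-PD-1, without overlap, as for 24% of genes, and its log2 fold change was -0.46 ± 0.19 (adjusted p = 0.146). With the receptor gene counts as a covariate it was -0.09. After anti-PD-1 in iNOS KO, Asns was 75.8, 75.5 and 91.9 CPM, above the WT tumors, with a log2 fold change of 0.39 that became -0.02 with that covariate. On day 3 of the time course Asns was 74.6, 78.2 and 77.9 CPM after anti-PD-1 and 63.3, 48.6 and 72.6 after IgG, without overlap (8.32% of genes), with a log2 fold change of 0.32 (95% interval -0.29 to 0.93).

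All 10 genes had a positive log2 fold change for iNOS KO against WT after anti-PD-1 at day 7, from 0.18 for Trib3 to 0.65 for Ppp1r15a, with a median of 0.26. The median of all genes tested in that comparison was -0.91, and 2 of the 3 WT tumors held the receptor gene counts. That median was 0.01 with these counts as a covariate and 0 without the 3 libraries that hold them. The median of the 10 genes was 0.18 with DESeq2's size factors. With the receptor gene counts as a covariate, Asns was slightly negative and the Ppp1r15a value was smaller, as given above. The shared positive direction therefore did not hold under that setting. In the 10 other day 7 contrasts the median of all genes lay between -0.47 and 0.96, and with the covariate between -0.03 and 0.07. The median of the 10 genes changed sign from TMM to DESeq2's size factors for anti-PD-1 against untreated in WT, from -0.06 to 0.02, and for IgG against untreated in iNOS KO, from 0.02 to -0.04. In the time course it did so for day 3 against day 1, from 0.03 to -0.03. The interaction, which asked whether anti-PD-1 against IgG differed between genotypes, called 0 of 10, with 0 at an unadjusted p under 0.05. Its largest value was 0.75 for Ppp1r15a (95% interval -0.10 to 1.61, adjusted p = 0.683).

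Several of the 10 genes varied together among tumors of the same condition. Each tumor's log2(CPM + 0.5) was taken as its deviation from the condition mean, and the deviations of the 45 pairs of genes were correlated, with p from 100000 permutations within conditions. In the time course 19 of 45 pairs passed an adjusted p of 0.05, all of them positive. The share of all gene pairs that would pass was not computed. The count therefore does not show that these genes vary together more than other genes do. At day 7, with 18 tumors, 0 passed, and the lowest adjusted p was 0.055. The tightest pair in the time course was Psat1 with Phgdh, with Pearson's r = 0.95 and Spearman's rho = 0.93 (adjusted permutation p = 0.00045 for both, from an unadjusted 1e-05, the smallest the permutations can give), and r = 0.93 without the 2 tumors farthest from the median. At day 7 the same pair had r = 0.81 and rho = 0.84 (adjusted permutation p = 0.055 and 0.070).

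**Figure D3:**
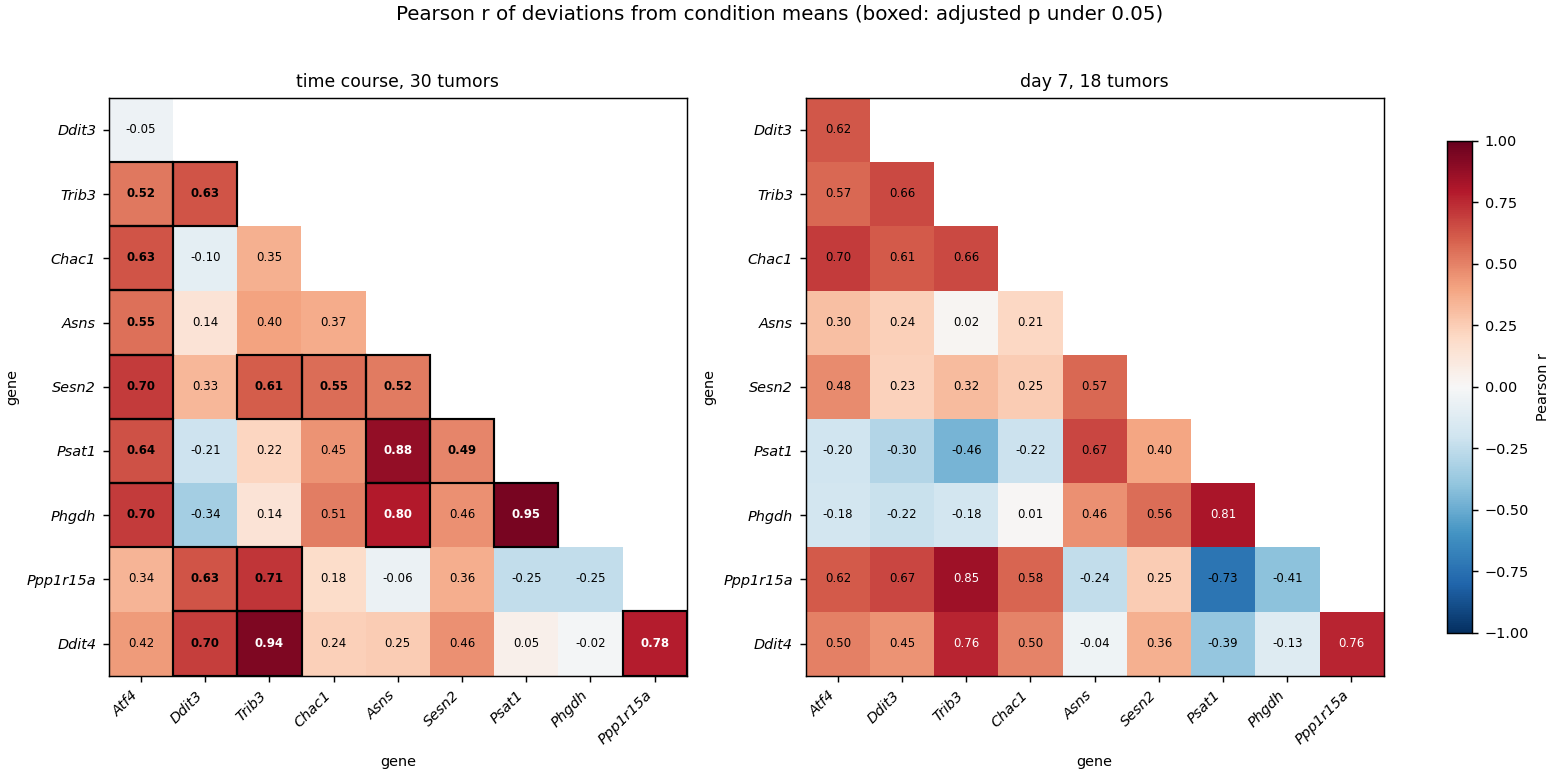
Each cell gives Pearson's r of 2 genes over the tumors of an experiment, after removing condition means. Boxes mark an adjusted permutation p under 0.05, of which there are 19 in the time course and 0 at day 7. Asns, Psat1 and Phgdh hold 3 of the boxed pairs among themselves and Ddit3, Trib3, Ppp1r15a and Ddit4 hold 6, and the other 10 include Atf4, Chac1 or Sesn2.

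Of the 19 pairs, 3 of 3 possible lay among the amino acid enzymes and 6 of 6 among Ddit3, Trib3, Ppp1r15a and Ddit4. The other 10, of 24 possible, included Atf4, Chac1 or Sesn2. These 2 sets were formed beside the correlations they describe, so the counts do not test a grouping. Among the enzymes, Asns correlated with Psat1 at r = 0.88 and with Phgdh at 0.80 in the time course (rho = 0.82 and 0.67), and at 0.67 and 0.46 at day 7 (rho = 0.68 and 0.59). In the second set Trib3 correlated with Ddit4 at r = 0.94, rho = 0.88 (adjusted permutation p = 0.000675 and 0.0009), and at 0.88 without the 2 farthest tumors. That pair gave 0.83 without the 3 libraries that stand apart, and IgG day 1 replicate 6, which is among those 3, was lowest of all tumors in both genes. Ppp1r15a correlated with Ddit4 at 0.78, with Trib3 at 0.71 and with Ddit3 at 0.63, and Ddit3 with Ddit4 at 0.70 (rho = 0.77, 0.66, 0.58 and 0.69), all past the correction. Ddit3 with Trib3 gave r = 0.63 (adjusted permutation p = 0.031), but its rho of 0.54 did not pass (0.058). Its r was 0.44 without the 2 farthest tumors, and it passed under 22 of 33 other settings. At day 7 these 6 values were 0.76 for Trib3 with Ddit4, 0.76 for Ppp1r15a with Ddit4, 0.85 for Trib3 with Ppp1r15a, 0.67 for Ddit3 with Ppp1r15a, 0.45 for Ddit3 with Ddit4 and 0.66 for Ddit3 with Trib3, without passing. The 12 pairs between these sets ran from -0.34 for Ddit3 with Phgdh to 0.40 for Trib3 with Asns in the time course, and none passed. At day 7 they ran from -0.73 for Psat1 with Ppp1r15a (rho = -0.73, adjusted permutation p = 0.055 and 0.070) to 0.24 for Ddit3 with Asns, again without passing. Atf4 correlated in the time course with the 3 enzymes, at 0.70 with Phgdh, 0.64 with Psat1 and 0.55 with Asns, and also at 0.70 with Sesn2, 0.63 with Chac1 and 0.52 with Trib3. Its values with Ddit4 (0.42), Ppp1r15a (0.34) and Ddit3 (-0.05) did not pass. At day 7 none passed, and Atf4 stood at 0.70 with Chac1, 0.62 with Ddit3 and with Ppp1r15a, 0.57 with Trib3, 0.50 with Ddit4, 0.48 with Sesn2, 0.30 with Asns, -0.18 with Phgdh and -0.20 with Psat1. Of the 19 pairs, 10 passed under each of 33 other settings, and Sesn2 with Psat1 passed under the fewest, 17. Like Ddit3 with Trib3, Sesn2 with Trib3, Asns and Psat1 passed by r but not by rho (adjusted permutation p = 0.051, 0.062 and 0.062).

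**Figure D4:**
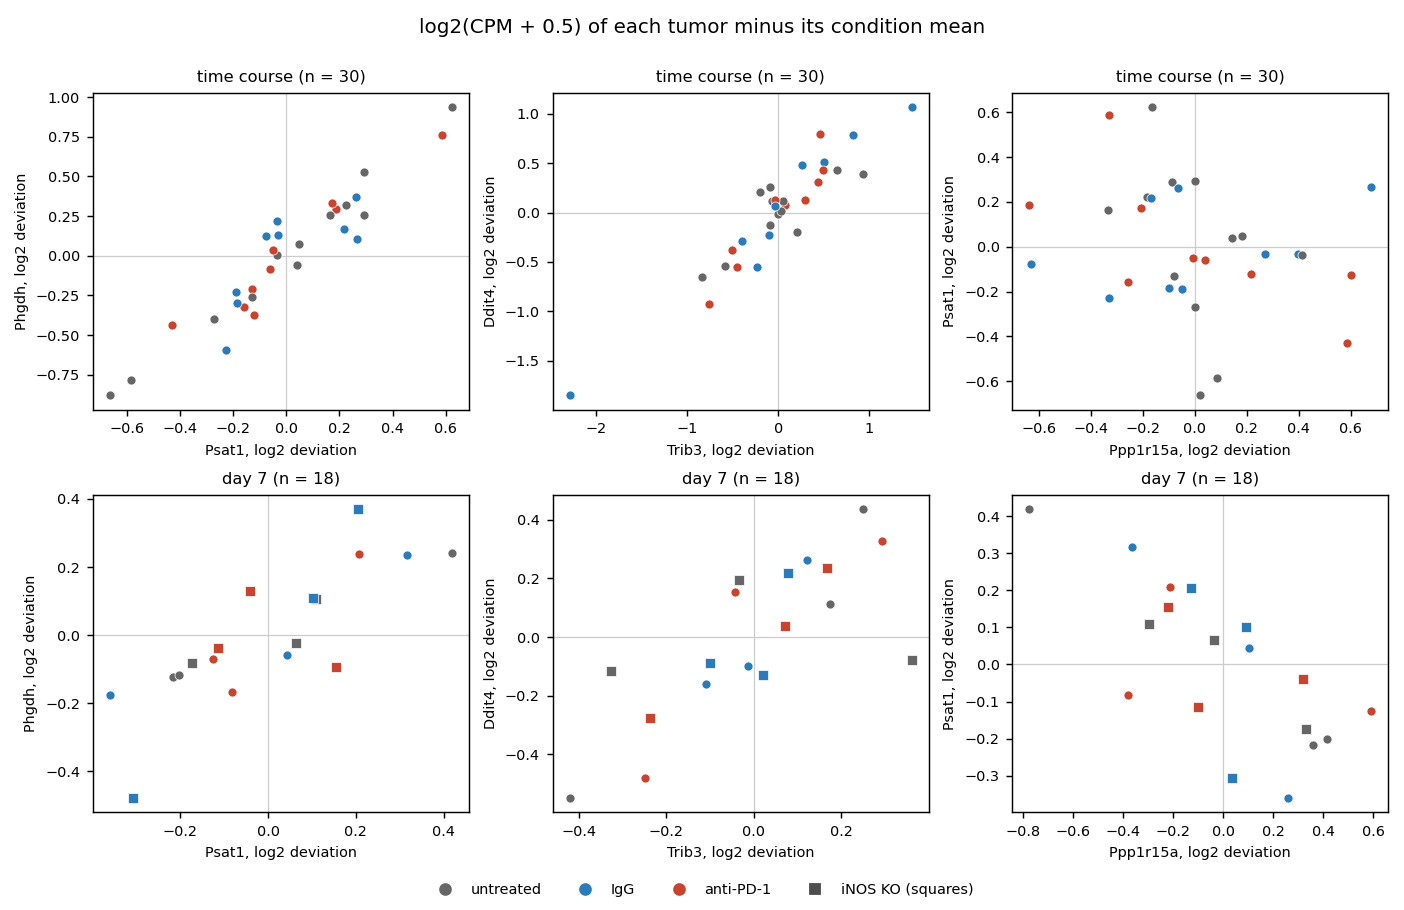
Points are tumors, 30 in the upper row and 18 in the lower, squares for iNOS KO, and both axes give log2 deviations from the condition mean. Psat1 and Phgdh, and Trib3 and Ddit4, lie along rising lines in both experiments (r = 0.95 and 0.81, and 0.94 and 0.76), and Psat1 falls as Ppp1r15a increases at day 7 (r = -0.73) but not clearly in the time course (r = -0.25).

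The deviations were also set against the mean levels of 5 gene lists and against library size, in 60 relations per experiment. In the time course 17 passed an adjusted p of 0.05 and at day 7, 6 did, against 0 without the 3 libraries with receptor gene counts. The share of all genes with such relations was not computed, so these counts are not set apart from other genes. Ddit4 followed the 13 hypoxia genes, glycolytic and other targets of the oxygen-regulated factor HIF, at r = 0.91 and rho = 0.91 in the time course (adjusted permutation p = 0.00024 and 0.00012) and at 0.77 and 0.81 at day 7 (0.048 and 0.042). Trib3 stood at 0.83 and 0.67, Ppp1r15a at 0.73 and 0.77 and Ddit3 at 0.82 and 0.71 with the same list (rho = 0.77 and 0.68, 0.73 and 0.76, and 0.81 and 0.66), of which the last missed the correction at day 7 (adjusted permutation p = 0.055). Without the 2 farthest tumors the r for Ddit4 was 0.87 and 0.69, for Trib3 0.73 and 0.70, and for Ppp1r15a 0.69 and 0.71. At day 7 the rho of Trib3 with the hypoxia list missed the correction (adjusted permutation p = 0.051). The 6 relations of day 7 all had an adjusted p of 0.048 for r. Leaving out 1 tumor kept 4 to 6 of them when it was iNOS KO IgG replicate 3, untreated iNOS KO replicate 4, WT IgG replicate 1 or 2, or untreated WT replicate 3, and left 0 or 1 when it was any other of the 18. The r for Ddit4 with hypoxia then ran from 0.68 to 0.82.

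The amino acid enzymes followed other lists. In the time course Phgdh and Psat1 correlated with the melanoma markers at r = 0.90 and 0.88 (rho = 0.89 and 0.87, adjusted permutation p = 0.00015 for both r), with the XBP1 and ATF6 targets of the unfolded protein response at 0.88 and 0.91, and with log2 library size at 0.77 and 0.74, and Asns with the first 2 at 0.79 and 0.82. Asns and Psat1 ran against glucocorticoid targets at -0.76 and -0.71. Library size and melanoma content thus moved with these genes from tumor to tumor, and their part in the correlations among the enzymes was not tested. At day 7 no melanoma marker relation passed, and Asns had the highest r, 0.79 (adjusted permutation p = 0.103). There the XBP1 and ATF6 targets gave 0.77 for Asns, 0.10 for Phgdh and 0.19 for Psat1, and library size 0.59, -0.01 and 0.05, none past the correction. Atf4 followed the XBP1 and ATF6 targets at 0.59 in the time course (rho = 0.68). At day 7 Atf4 stood at 0.67 with them, but its rho of 0.61 did not pass (adjusted permutation p = 0.145). It also followed the melanoma markers at 0.55 (rho = 0.59, adjusted permutation p = 0.012) and library size at 0.66 (rho = 0.66, adjusted permutation p = 0.0105) in the time course. At day 7 Trib3 and Ppp1r15a followed the glucocorticoid targets at 0.62 and 0.74, but the rho of Ppp1r15a missed the correction (adjusted permutation p = 0.051). In the time course they stood at -0.25 and 0.15, where neither passed. Leukocyte markers were related to none of the 10 in either experiment after correction, with r between -0.51 and 0.68.

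**Figure D5:**
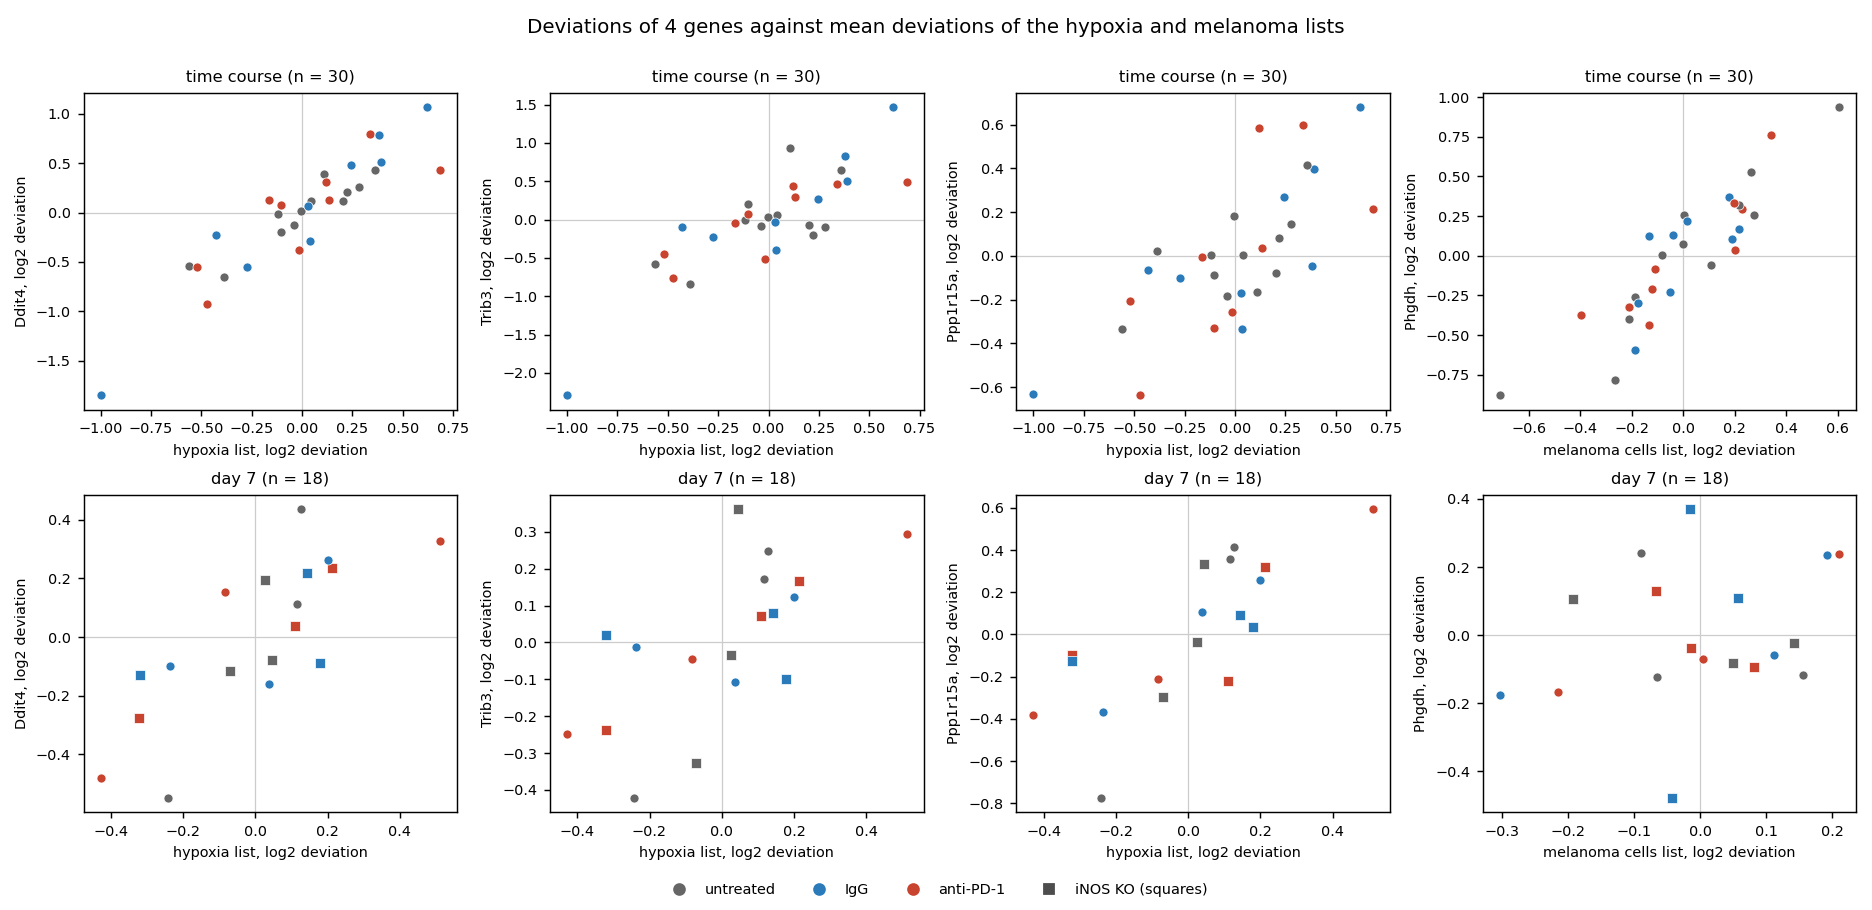
Points are tumors, 30 above and 18 below, with log2 deviations from condition means on both axes, for Ddit4, Trib3 and Ppp1r15a against the mean of 13 hypoxia genes and for Phgdh against the mean of 10 melanoma markers. The hypoxia relations slope upward in both rows (r = 0.91 and 0.77 for Ddit4), and the melanoma relation of Phgdh has r = 0.90 above and 0.25 below.

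Among 14785 genes expressed in both experiments, the 8 whose deviations were most like the mean of the 10 were Vasp, Bhlhe40, Sec16a, Bcas3, Nckap5l, Arhgdia, Tpi1 and Ccnd2. The lower of their 2 values of r ran from 0.79 to 0.82 over 30 and 18 tumors. The 10 genes themselves ranged from 0.47 for Ddit3 to 0.88 for Trib3 against that mean in the time course and from -0.03 for Psat1 to 0.79 for Chac1 at day 7. Each of the 10 is part of that mean, which raises its r, so these values do not compare with those of the 8 other genes.

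The rest of the pathway was read through 83 further genes in 8 lists, all of which were tested in both experiments. Of 2407 tests, 1 passed and 173, or 7.19%, had an unadjusted p under 0.05. The share of all genes at that level ran from 2.14% to 16.9% over the time course comparisons and from 1.94% to 32.3% at day 7. The counts of the lists are to be read against those shares and not against 5%. The 4 eIF2alpha kinases, Eif2ak1, Eif2ak2, Eif2ak3 and Eif2ak4, had 0 calls and 5 of 116 tests at that level. Eif2ak2, which senses double-stranded RNA, ranged from 89.5 to 202 CPM in the time course, and Eif2ak3, the endoplasmic reticulum sensor PERK, from 34.3 to 57.4 CPM. The subunits of eIF2, eIF2B and the phosphatase had 17 of 319, the other stress transcription factors 10 of 174, the amino acid transporters 26 of 290, the tRNA synthetases 18 of 377, the serine, one-carbon and proline enzymes 24 of 261, other ATF4 targets 31 of 348, and the XBP1 and ATF6 targets 42 of 522. The gene called was Cbs, which makes cystathionine from serine and homocysteine, for any difference among the 6 day 7 conditions (adjusted p = 0.035). It was highest in the 3 libraries with receptor gene counts, at 17.4, 5.88 and 5.8 CPM, and at 1.45 CPM or less in the other 15.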

How the data were processed

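RNA of 48 B16-D5 tumors was sequenced from strand-specific libraries by the authors, and the deposited values are whole-number read counts per gene, not normalized. The submitters' processing notes name cutadapt 1.8.1, STAR 2.7.7a, RSEM 1.3.0 and the mm10 build, while the deposited table is titled as featureCounts output, so the counting tool is uncertain. The strand setting used in counting is not given in the sources used here. Conditions came from the sample titles. These read D0 for the tumors given here as 6 h and name no day for the day 7 experiment, so both times follow the study's description. Tumors were processed individually, per the study's methods, and p-values measure the spread between these tumors.

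Counts were analysed in R 4.3.3 with edgeR 4.0.16, within each experiment, after a filter on low counts (minimum count 10). All conditions of an experiment entered 1 quasi-likelihood fit with TMM factors, and p-values were adjusted by Benjamini-Hochberg over all genes tested. DESeq2 1.42.0, the method of the study, was an alternative. The edgeR test was also run on simulated counts with known changes, and the outcome of that run is not given here. Correlations used log2(CPM + 0.5) as deviations from condition means, in Python 3.11.15 with scipy 1.17.1, with 100000 two-sided permutations within conditions and adjustment over 45 or 60 relations. The sensory receptor limit of 900 CPM and the median correlation limit of 0.9 marked libraries that stand apart.

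The 10 genes and all lists were chosen with earlier results of these data known. Named besides them were pathway genes called in a comparison and the 8 genes most like the mean of the 10. The examples Eif2ak2 and Eif2ak3 were chosen after their values were seen. Same-numbered tumors did not deviate together (median correlation -0.08 over 65 pairs and -0.02 over 36), so the replicate numbers were not used as pairs. Other settings were DESeq2 size factors, library totals, no filter, only the groups compared, the replicate block, receptor gene counts as a covariate, and fits without doubted libraries or without each tumor in turn. Leaving out the libraries of the time course that stand apart, and all other settings for the correlations, were chosen after seeing the data.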

Additional observations from a re-analysis of the deposited data

How the results depend on the processing

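Of 28 fold changes, 179 values under other settings and 684 with 1 tumor left out included 1 reversal, Asns for iNOS KO against WT after anti-PD-1, at -0.021 with receptor gene counts as a covariate. Without a filter on low counts, 1 of the 10 genes passed in each of 4 day 7 comparisons, which were Ppp1r15a for iNOS KO against WT after anti-PD-1 (0.75), Chac1 for the mean of iNOS KO against WT (0.59), Ddit4 for anti-PD-1 against untreated in iNOS KO (0.75) and Chac1 for any of the 6 conditions. With 1 tumor left out, 0 to 1 passed for iNOS KO against WT after anti-PD-1, for its mean and for any of the 6 conditions. The number of related pairs at day 7 was 2 with DESeq2 size factors, 2 with library totals, 1 without the 3 libraries with receptor gene counts, and 0 to 3 with 1 tumor left out. The number of relations with lists at day 7 was 0 without those 3 libraries and 0 to 6 with 1 tumor left out. In the time course the related pairs numbered 15, 16 and 13 with DESeq2 size factors, library totals and without the libraries that stand apart. The causes of these changes were not tested.

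With the replicate number as a block, 0 of the 10 genes passed in any comparison, and the replicate numbers do not pair the tumors. Over all genes the block left 144 calls for untreated iNOS KO against WT, against 181 without it, and 199 for any of the 6 conditions, against 513. Calls over all genes otherwise depended strongly on the tool, from 1 to 741 per time course comparison and 19 to 3877 per day 7 comparison with DESeq2, and up to 1405 and 7389 without a filter, against 0 and at most 513. They reached 466 with only the groups compared, 326 with the covariate and 247 without the 3 libraries. With 3 tumors per group, the 95% intervals of single genes often spanned a 2-fold change.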
